A study of Homo sapiens with 9 samples.

Results

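Integrins and the proteins that tie them to the actin cytoskeleton were followed by RNA sequencing in MDA-MB-231 cells, a mesenchymal-like triple-negative breast cancer line. The genes comprised every integrin alpha and beta chain listed in the count files (18 alpha and 8 beta chains, taken by their ITGA and ITGB symbols) and 24 focal adhesion genes chosen by name, 50 of the 26364 genes listed. Antisense genes were not taken, and 4 symbols of integrin-binding or integrin-like proteins were left out, among them ITGB3BP, whose letters fit the integrin pattern but whose product is not an integrin chain.

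The 9 libraries came from 3 stable lines with 3 libraries each. ShGLO1#2 and shGLO1#1 each carried an shRNA against GLO1, the glyoxalase that detoxifies methylglyoxal (MG), and shNT carried a non-targeting shRNA. The comparisons address how mRNA levels differ between the lines depleted of GLO1, which the authors describe as under MG stress, and the control line. The submitters describe each line as 1 clone and its libraries as biological replicates, so that the silencing of GLO1 and differences between clones cannot be told apart, and every p-value below rests on how much the libraries within a line varied.

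Libraries held 15314238 to 18495576 counts on genes. Levels are given as CPM, the usual rate of counts relative to the library size, here scaled by the TMM method, and always in the order of replicates 1, 2 and 3 of a line. GLO1 averaged 14.7 ± 0.760 CPM in shGLO1#2, 65.4 ± 0.955 CPM in shGLO1#1 and 317 ± 5.63 CPM in shNT (SD, n = 3 each), which fitted the label of every library. The cells had abundant vimentin mRNA (VIM, 4144, 3158 and 3330 CPM on average in shGLO1#2, shGLO1#1 and shNT), and the hormone receptor genes ESR1 and PGR stayed at or below 0.432 and 0.247 CPM in every library. ERBB2 (65.6 to 86.3 CPM) and EPCAM (9.56 to 15.5 CPM), which were listed as low or absent in this line, were detected in every library.

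Each integrin is a pair of 1 alpha and 1 beta chain that spans the membrane. The alpha chain largely sets which matrix protein is bound, with separate groups of chains for collagens, for laminins, and for ligands such as fibronectin and vitronectin that carry the tripeptide RGD. Inside the cell, talins and kindlins bind the beta tail and switch the receptor on, and vinculin, filamin, zyxin and the alpha-actinins connect it to actin. Focal adhesion kinase (FAK), paxillin and the Cas adaptors pass on the signal, and the complex of ILK, PINCH and parvin holds the site together. In breast cancer cells these proteins are known for their part in migration, invasion and growth within matrix.

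Of the 50 genes, 38 had enough counts to be tested (15 integrins and 23 focal adhesion genes). The 12 others were ITGA2B, ITGA4, ITGA8, ITGA9, ITGA11, ITGAD, ITGAL, ITGAM, ITGAX, ITGB6, ITGB7 and PARVB, with 2 to 41 counts each over all 9 libraries. Calls needed both a log2 fold change beyond 1 in either direction and, in edgeR's quasi-likelihood test, a p under 0.05 after adjustment over all 13704 genes tested. In shGLO1#2 against shNT, 2 members were called higher (ITGB8 and TNS1) and 2 lower (ITGB2 and NEDD9), where 5.09% of all genes tested were called higher and 2.59% lower. In shGLO1#1 against shNT, 4 were called higher (ITGA2, ITGA10, ITGB8 and TNS1) and the same 2 were lower, against 5.98% and 2.75% of all genes. TNS1 entered the test only through its counts in shGLO1#2, and without it 1 and 3 members were called higher.

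Counts by the adjusted p alone also took in shifts below 2-fold, some of them in members whose libraries overlapped those of shNT. By the adjusted p alone, 8 members were higher (21.1% of those tested) and 11 lower (28.9%) in shGLO1#2 against shNT. Of all genes tested, 18.3% were higher and 19.8% lower. In shGLO1#1 against shNT, 16 were higher (42.1%) and 8 lower (21.1%), where 22.6% and 23.1% of all genes were. TNS1 was among the higher members of both comparisons and entered the test only through its counts in shGLO1#2. The 8 lower members became 5 when replicate 1 of shGLO1#1 was left out. Integrins took 4 of the 8 higher members in shGLO1#2 and 9 of the 16 in shGLO1#1, out of 15 integrins tested. The median log2 fold change of the integrins tested was 0.08 in shGLO1#2 and 0.36 in shGLO1#1, and that of the focal adhesion genes was -0.01 and -0.10, where the median over all genes tested was 0.00 in both comparisons. These 2 comparisons share the shNT libraries.

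The labels do not say whether replicate numbers pair libraries. For shGLO1#2 and shNT a pairing was read from weak correlations between same-number libraries (0.21, 0.185 and 0.309). The counts above, and later values where no block is named, came from a model without this pairing. With the replicate number as a block, the members called in shGLO1#2 against shNT stayed at 2 higher and 2 lower. By the adjusted p alone the counts were 12 higher and 14 lower in place of 8 and 11. The higher counts all include TNS1.

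**Figure D1:**
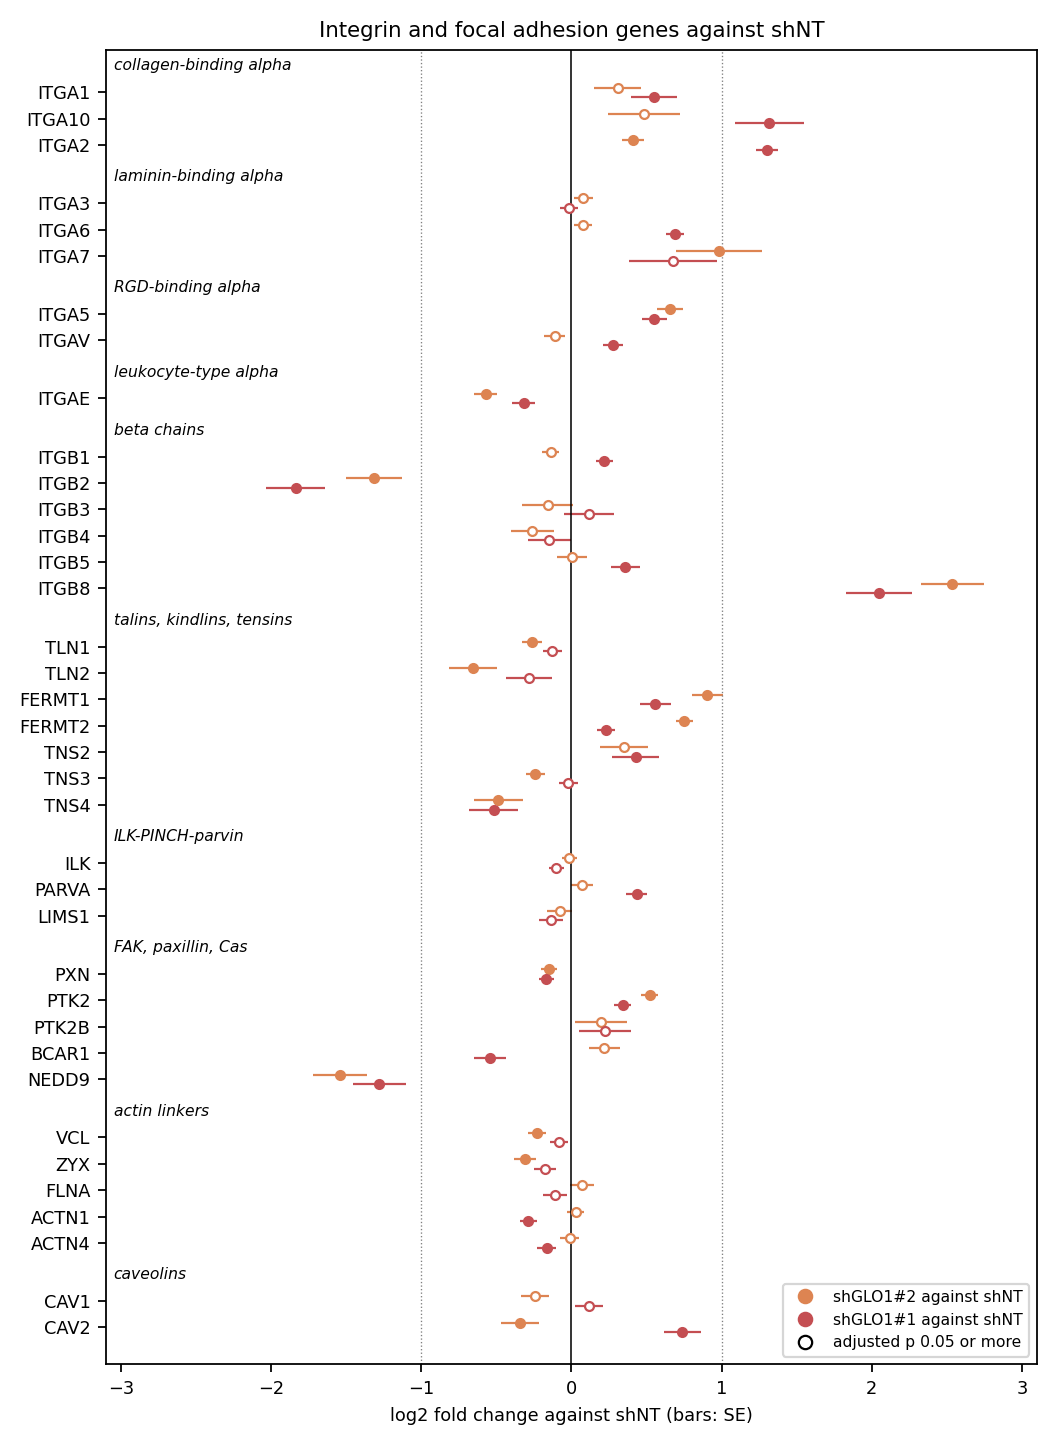
Log2 fold change (x axis) of 37 tested members against shNT, grouped by role down the y axis, with shGLO1#2 above shGLO1#1 in each pair. Points are edgeR estimates with their SE, filled where the adjusted p was under 0.05, and dotted lines mark the limit of 1. ITGB8 lies farthest to the right (2.54 and 2.05) and ITGB2 and NEDD9 farthest to the left, while most actin linkers lie close to 0. TNS1, with no count in shNT, is not drawn.

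The regions around the transcription starts of ITGB8, ITGA2 and ITGA10 are shown because these were the integrin chains called higher in shGLO1#1. They run from 250 bases before to 50 after the start, 5′ to 3′ on the gene's strand, and were taken from RefSeq annotation of GRCh38.p14, which is not the build on which the authors counted. The ITGB8 region is chr7:20330650-20330949 (plus strand), that of ITGA2 is chr5:52989102-52989401 (plus strand), and that of ITGA10 is chr1:145910001-145910300 (minus strand). Capitals mark GC boxes (GGGCGG, or CCGCCC on the other strand) in ITGB8 and ITGA2 and the TEAD motif (GGAATG, or CATTCC on the other strand) in ITGA10.
ITGB8: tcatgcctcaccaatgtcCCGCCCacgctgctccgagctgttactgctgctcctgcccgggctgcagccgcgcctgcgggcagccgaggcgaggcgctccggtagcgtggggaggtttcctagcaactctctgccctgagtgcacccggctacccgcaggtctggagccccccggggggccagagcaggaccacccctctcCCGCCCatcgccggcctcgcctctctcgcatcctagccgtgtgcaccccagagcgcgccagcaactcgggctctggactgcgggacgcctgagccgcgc
ITGA2: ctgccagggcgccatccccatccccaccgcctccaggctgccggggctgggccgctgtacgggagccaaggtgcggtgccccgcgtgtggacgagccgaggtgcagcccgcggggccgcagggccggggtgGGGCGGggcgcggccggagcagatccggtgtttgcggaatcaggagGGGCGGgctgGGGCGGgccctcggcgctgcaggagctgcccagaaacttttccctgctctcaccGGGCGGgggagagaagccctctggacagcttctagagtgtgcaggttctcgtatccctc
ITGA10: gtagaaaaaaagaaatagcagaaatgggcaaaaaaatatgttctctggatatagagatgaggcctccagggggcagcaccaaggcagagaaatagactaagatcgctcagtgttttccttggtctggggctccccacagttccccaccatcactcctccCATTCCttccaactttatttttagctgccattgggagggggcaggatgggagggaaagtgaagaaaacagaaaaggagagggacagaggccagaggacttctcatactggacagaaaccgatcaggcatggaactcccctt

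The regions differed in base composition. ITGB8 and ITGA2 held 28 and 27 CpG dinucleotides and ITGA10 held 2, where the median of 35116 promoter regions of the same length was 14. Both CpG-rich regions held GC boxes, with 2 in ITGB8 (first bases at -232 and -49 from the start) and 4 in ITGA2 (-119, -73, -63 and -9), a motif found in 45% of all these regions. The single TEAD motif of ITGA10 lay at -91, and 14% of all regions had one. None of the 3 windows held the letters TGACTCA of AP-1 (either strand, 4.95% of all regions), CAGGTG (20.6%), the ETS motif CCGGAAG (10.3%) or an SRF CArG box (1.29%).

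Of the 4 collagen-binding alpha chains 3 were tested, and 1 of them rose by the adjusted p in shGLO1#2 and 3 in shGLO1#1. ITGA2, the alpha chain of the main collagen receptor of epithelial cells, had 537, 455 and 433 CPM in shGLO1#2, 916, 887 and 847 CPM in shGLO1#1, and 347, 350 and 377 CPM in shNT. All libraries of both depleted lines lay above all shNT libraries, and those of shGLO1#1 lay above those of shGLO1#2. ITGA2 rose by 0.41 ± 0.07 on the log2 scale in shGLO1#2 (± SE, adjusted p = 5.25e-04), below the limit for a call, and by 1.30 ± 0.07 in shGLO1#1 (adjusted p = 3.14e-08).

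ITGA10, which forms a collagen receptor best known from cartilage, was at 16.8, 8.49 and 9.74 CPM in shGLO1#2, 25.8, 15.9 and 20.8 CPM in shGLO1#1, and 8.53, 7.50 and 8.91 CPM in shNT. The shGLO1#1 libraries did not overlap those of shNT, whereas in shGLO1#2 only replicate 1 was well above them. ITGA10 rose in shGLO1#1 (log2 fold change 1.32 ± 0.23, adjusted p = 3.56e-04). In shGLO1#2 it was at 0.48 ± 0.24 (adjusted p = 0.129), at 0.46 with the replicate block (adjusted p = 0.0119), and at 0.13 without replicate 1 of that line. ITGA1, a collagen and laminin receptor chain with exon bases shared with PELO, rose by 0.55 in shGLO1#1 (adjusted p = 0.00995) and was at 0.31 in shGLO1#2 (adjusted p = 0.139, and 0.0289 with the replicate block). ITGA11, the chain for fibrillar collagen on fibroblasts, was not tested for lack of counts.

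Among the laminin-binding chains, ITGA3 was the most abundant alpha chain per kilobase of exon (165 ± 12.7 CPM per kb in shGLO1#2, 155 ± 4.08 in shGLO1#1 and 157 ± 10.03 in shNT), and its log2 fold changes of 0.08 and -0.02 did not pass the test (adjusted p = 0.348 and 0.853). ITGA6, which pairs with the beta chains ITGB1 and ITGB4, averaged 396 ± 25.0 CPM in shGLO1#2, 604 ± 30.5 CPM in shGLO1#1 and 375 ± 19.4 CPM in shNT. It rose in shGLO1#1 (0.69, adjusted p = 1.11e-06), where its libraries lay above all 6 others, and was at 0.08 in shGLO1#2 (adjusted p = 0.335).

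ITGA7, the laminin receptor chain of muscle, was low, at 3.84, 2.01 and 2.11 CPM in shGLO1#2, 2.28, 2.01 and 2.11 CPM in shGLO1#1, and 1.61, 1.43 and 0.996 CPM in shNT. Both depleted lines lay above shNT in every library. Its log2 fold change was 0.99 in shGLO1#2 (adjusted p = 0.0148) and 0.68 in shGLO1#1 (adjusted p = 0.0767). The first was lost without replicate 1 of shGLO1#2 (0.63, adjusted p = 0.0744) or replicate 3 of shNT (0.80, adjusted p = 0.0675) and went past the limit of 1 when replicate 1 or 2 of shNT or replicate 2 or 3 of shGLO1#2 was left out (1.04 to 1.17). Its exons overlap METTL7B, a gene with 119 counts in all.

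ITGA5, the alpha chain of the classical fibronectin receptor, stood higher in both depleted lines, at 324, 267 and 251 CPM in shGLO1#2, 259, 280 and 244 CPM in shGLO1#1, and 177, 189 and 169 CPM in shNT. All 6 libraries of depleted cells lay above those of shNT. It rose by 0.66 ± 0.09 in shGLO1#2 (adjusted p = 4.42e-05) and by 0.55 ± 0.09 in shGLO1#1 (adjusted p = 1.56e-04). ITGAV, the alpha chain shared by the vitronectin receptors and the TGF-beta-activating integrins, rose by 0.28 in shGLO1#1 (adjusted p = 0.00519) and was at -0.11 in shGLO1#2 (adjusted p = 0.236). The platelet chain ITGA2B and the chain ITGA8 were among those not tested.

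ITGA8 had 0, 0 and 1 count in shGLO1#2, 13, 2 and 3 counts in shGLO1#1 and 1, 0 and 0 counts in shNT. Most of its counts came from 1 library, replicate 1 of shGLO1#1. The ratio of shGLO1#1 to shNT was 16.7 with an exact 95% interval of 2.63 to 695 that covers counting error only.

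Among the beta chains the gain of ITGB8 stood beside the loss of ITGB2. ITGB8 pairs with ITGAV, and the pair is known for activating latent TGF-beta. It had 6.09, 6.09 and 5.90 CPM in shGLO1#2, 5.12, 3.92 and 3.88 CPM in shGLO1#1, and 0.806, 0.913 and 1.33 CPM in shNT. No library of a depleted line came near those of shNT, and the 3 lines did not overlap. ITGB8 rose by 2.54 ± 0.21 in shGLO1#2 (adjusted p = 9.30e-07) and by 2.05 ± 0.22 in shGLO1#1 (adjusted p = 5.94e-06). It remained a minor chain, with 0.113% of the summed beta chain level per kilobase in shGLO1#2, 0.0646% in shGLO1#1 and 0.0172% in shNT.

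ITGB2, the beta chain of the leukocyte integrins, had 10.8, 6.70 and 9.74 CPM in shGLO1#2, 5.80, 5.44 and 7.70 CPM in shGLO1#1, and 28.2, 18.8 and 20.8 CPM in shNT. Both depleted lines lay below every shNT library and overlapped each other. ITGB2 fell by 1.32 on the log2 scale in shGLO1#2 (adjusted p = 9.32e-05) and by 1.84 in shGLO1#1 (adjusted p = 5.84e-06). Its 4 leukocyte alpha partners were close to undetected, with 5 counts of ITGAD, 3 of ITGAL, 6 of ITGAM and 15 of ITGAX over all 9 libraries, against 1868 of ITGB2.

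The exons of ITGB2 share bases with the antisense gene ITGB2-AS1, and the library kit did not mark the strand, so reads of their shared bases cannot be told apart. ITGB2-AS1 had 0.731, 1.17 and 2.42 CPM in shGLO1#2, 1.30, 1.41 and 3.31 CPM in shGLO1#1, and 2.89, 2.87 and 4.21 CPM in shNT. It fell in shGLO1#2 (-1.22, adjusted p = 0.0271) and was at -0.73 in shGLO1#1 (adjusted p = 0.129).

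PTPRC, the pan-leukocyte phosphatase CD45, moved with ITGB2. It was at 2.31, 2.18 and 3.23 CPM in shGLO1#2, 0.926, 0.925 and 1.77 CPM in shGLO1#1, and 9.34, 6.26 and 9.52 CPM in shNT, and its log2 fold changes were -1.71 (adjusted p = 6.50e-05) and -2.79 (adjusted p = 1.97e-06). Other leukocyte markers did not fall with it. CSF1R, the receptor of macrophage colony-stimulating factor, rose by 0.88 in shGLO1#2 (adjusted p = 0.00751) and by 1.93 in shGLO1#1 (adjusted p = 6.71e-06). MS4A1 of B cells had no count in any library, CD3E of T cells stayed at or below 0.0652 CPM. The summed level of the 8 leukocyte markers was 143 to 165 CPM in shGLO1#2, 148 to 161 CPM in shGLO1#1 and 127 to 132 CPM in shNT, most of it from CD68, a lysosomal protein that is not confined to leukocytes. In bulk libraries, fewer cells that express a gene and less mRNA per cell cannot be told apart.

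**Figure D2:**
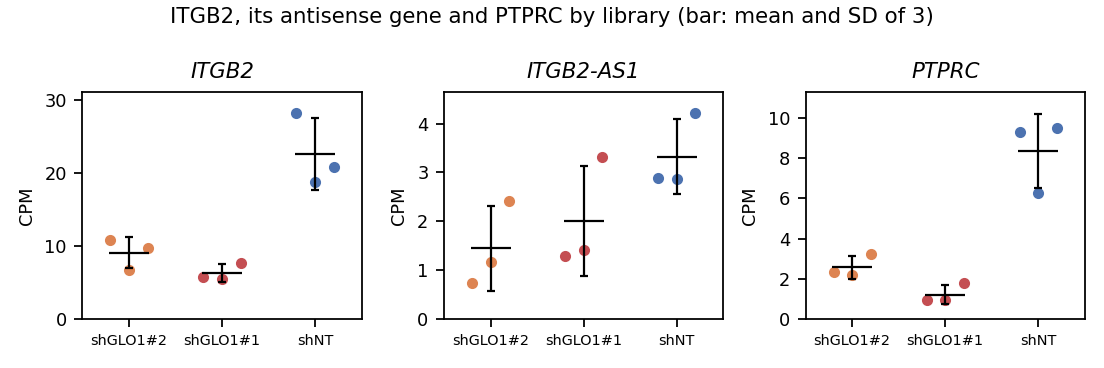
CPM (y axis, from 0) of ITGB2, ITGB2-AS1 and PTPRC in each of the 9 libraries, by line on the x axis. Points are libraries in the order of their replicate numbers, and bars give the mean and SD of 3. ITGB2 and PTPRC were lower in all 6 libraries of depleted cells than in any shNT library, while 1 library of shGLO1#1 lay above 2 of shNT for ITGB2-AS1.

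ITGAE, the alpha chain that pairs with ITGB7 on lymphocytes of epithelia and binds E-cadherin, fell in both depleted lines, by 0.57 in shGLO1#2 (adjusted p = 4.87e-05) and by 0.32 in shGLO1#1 (adjusted p = 0.00340). It averaged 24.0 ± 0.450 CPM in shGLO1#2, 28.6 ± 1.49 CPM in shGLO1#1 and 35.7 ± 2.01 CPM in shNT, with no overlap between the lines. ITGAE shares 427 exon bases with HASPIN on the opposite strand. Its partner ITGB7, which shares 1886 exon bases with ZNF740 on the opposite strand, had 9, 15 and 17 counts in the 3 lines. The gene of the ITGAE ligand, CDH1, fell as well.

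The common beta chain ITGB1, which pairs with all of the collagen and laminin alpha chains above, averaged 1717 ± 42.3 CPM in shGLO1#2, 2199 ± 83.9 CPM in shGLO1#1 and 1888 ± 134 CPM in shNT. It rose slightly in shGLO1#1 (0.22, adjusted p = 0.00609) and was at -0.14 in shGLO1#2 (adjusted p = 0.0731, and 0.0314 with the replicate block). ITGB5, a partner of ITGAV for vitronectin, rose in shGLO1#1 (0.36, adjusted p = 0.00862) and was at 0.00 in shGLO1#2 (adjusted p = 0.986). ITGB3, the other vitronectin receptor chain, and ITGB4, the hemidesmosome chain, did not pass the test in either line, with log2 fold changes of -0.16 and 0.11 for ITGB3 and of -0.26 and -0.15 for ITGB4. With the replicate block the adjusted p of ITGB4 in shGLO1#2 was 0.0351.

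Compared per kilobase of exon, ITGB1 carried most of the beta chain mRNA in every line, with 81.2 ± 2.62% in shGLO1#2, 82.7 ± 0.544% in shGLO1#1 and 80.7 ± 2.26% in shNT. The make-up of the alpha chains differed more. ITGA3 took 48.0 ± 0.814% of the summed level per kilobase in shGLO1#2, 36.7 ± 1.03% in shGLO1#1 and 51.1 ± 2.42% in shNT, while ITGA2 took 17.4 ± 0.597%, 26.5 ± 1.00% and 14.8 ± 0.945% in the same lines. In shGLO1#1 the shares of ITGA2 ran from 25.8 to 27.6%, above the 14.0 to 15.8% of shNT, and those of ITGA3 ran from 35.8 to 37.8%, below the 48.4 to 52.8% of shNT. The share of ITGA5 was 10.7 ± 0.595% in shGLO1#2, 8.17 ± 0.397% in shGLO1#1 and 7.69 ± 0.422% in shNT. Shares are descriptions without a test, and a share can shrink when other chains rise.

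**Figure D3:**
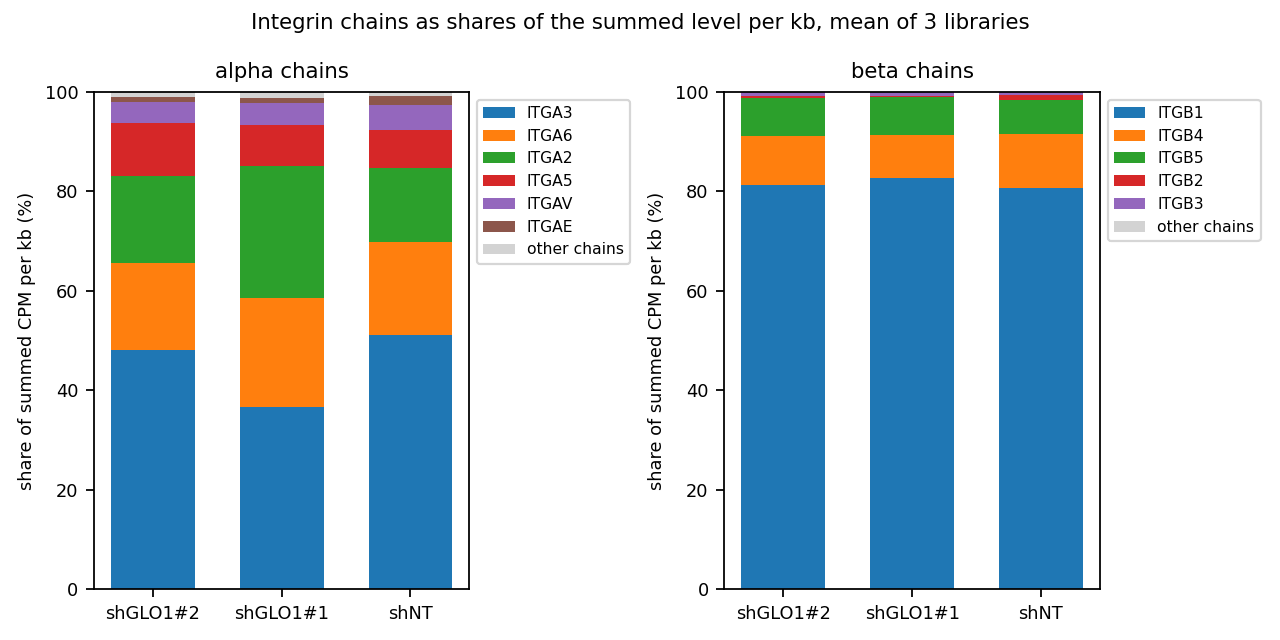
Share of each integrin chain in the summed CPM per kilobase of exon (y axis, %) of all alpha chains on the left and all beta chains on the right, as the mean of 3 libraries of each line on the x axis. ITGA2 makes up 26.5% of the alpha chain level in shGLO1#1 against 14.8% in shNT, and ITGB1 over 80% of the beta chain level in every line.

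Of the kindlins, which bind the beta tail together with talin, FERMT1 and FERMT2 were members and were higher in both depleted lines than in shNT. FERMT3 (kindlin-3), from the list of other focal adhesion proteins below, averaged 1.71 ± 0.484 CPM in shGLO1#2, 2.07 ± 0.231 CPM in shGLO1#1 and 1.65 ± 0.265 CPM in shNT, and its libraries overlapped. FERMT1 (kindlin-1, the epithelial form) had 36.8, 42.8 and 37.4 CPM in shGLO1#2, 34.3, 31.3 and 26.5 CPM in shGLO1#1, and 19.4, 22.4 and 20.8 CPM in shNT. The lines did not overlap. FERMT1 rose by 0.90 ± 0.10 in shGLO1#2 (adjusted p = 1.36e-05) and by 0.56 ± 0.10 in shGLO1#1 (adjusted p = 6.41e-04). FERMT2 (kindlin-2, the widely expressed form) averaged 150 ± 6.28 CPM in shGLO1#2, 104 ± 6.01 CPM in shGLO1#1 and 89.0 ± 1.93 CPM in shNT, a rise of 0.75 in shGLO1#2 (adjusted p = 4.50e-07) and of 0.23 in shGLO1#1 (adjusted p = 0.00512).

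The talins moved the other way in shGLO1#2. TLN1, the ubiquitous talin, fell by 0.26 (adjusted p = 0.00583) and TLN2 fell by 0.65 (adjusted p = 0.00515) in this line, and they were at -0.13 and -0.28 in shGLO1#1 (adjusted p = 0.127 and 0.153). TLN1 averaged 729 ± 55.3 CPM in shGLO1#2, 800 ± 15.5 CPM in shGLO1#1 and 874 ± 66.7 CPM in shNT.

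The tensins, which link integrin tails to actin in mature adhesions, did not move as a group. TNS1 had 153, 133 and 97 counts in shGLO1#2 and 2, 3 and 3 counts in shGLO1#1, and no count in any of the 3 shNT libraries. It was thus detected in every library of depleted cells, at 6.02 to 9.32 CPM in shGLO1#2 and at 0.123 to 0.171 CPM in shGLO1#1. With shNT set to a floor of 3 counts for the whole group, it was at least 122-fold higher in shGLO1#2 and at least 2.47-fold higher in shGLO1#1. No p-value is given for these, since TNS1 was tested only because of its level in shGLO1#2.

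TNS2 averaged 88.6 ± 20.3 CPM in shGLO1#2, 93.4 ± 9.67 CPM in shGLO1#1 and 69.7 ± 14.8 CPM in shNT. Its log2 fold change in shGLO1#1 was 0.43 (adjusted p = 0.0391), and in shGLO1#2 it was 0.35 (adjusted p = 0.0967, and 0.00269 with the replicate block). The value in shGLO1#1 did not pass with DESeq2 or without any of 4 libraries, namely replicates 2 and 3 of shNT and replicates 1 and 2 of shGLO1#1 (adjusted p = 0.0781 to 0.161). TNS3 fell in shGLO1#2 (-0.24, adjusted p = 0.00772) and was at -0.02 in shGLO1#1 (adjusted p = 0.808). TNS4 (cten), a tensin without the actin-binding part, was at -0.49 in shGLO1#2 (adjusted p = 0.0298) and -0.52 in shGLO1#1 (adjusted p = 0.0191), with 311 to 496 CPM across the shNT libraries, and neither passed without replicate 1 of shNT (adjusted p = 0.150 and 0.0996) or with DESeq2 (0.0973 and 0.0572). The first also did not pass without replicate 3 of shNT or replicate 2 of shGLO1#2 (0.0717 and 0.127), nor the second without replicate 1 of shGLO1#1 (0.0818).

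**Figure D4:**
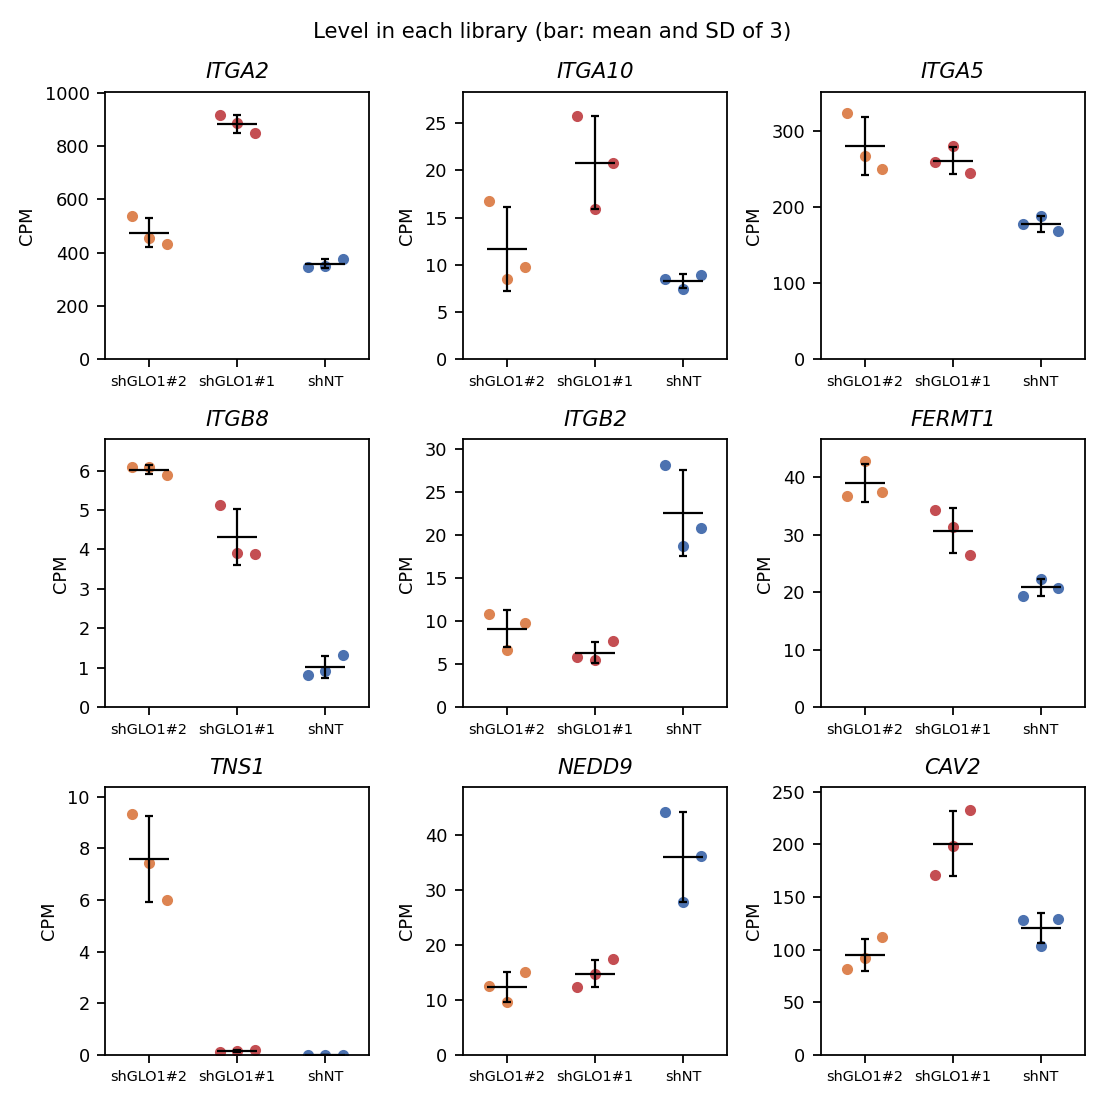
CPM (y axis, from 0, a separate scale for each gene) of the 9 members described library by library, with the line on the x axis. Points are libraries and bars give the mean and SD of 3. TNS1 is near 0 outside shGLO1#2, ITGB8 is at or below 1.33 CPM in all shNT libraries, and CAV2 is highest in shGLO1#1.

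NEDD9 was the focal adhesion gene that was called lower in both depleted lines. It encodes a Cas-family scaffold phosphorylated by FAK and SRC and known from studies of melanoma and breast cancer invasion. It had 12.5, 9.60 and 15.1 CPM in shGLO1#2, 12.3, 14.7 and 17.3 CPM in shGLO1#1, and 44.1, 27.8 and 36.1 CPM in shNT. The depleted lines overlapped each other and lay below every shNT library. NEDD9 fell by 1.54 on the log2 scale in shGLO1#2 (adjusted p = 1.77e-05) and by 1.28 in shGLO1#1 (adjusted p = 5.85e-05).

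BCAR1, which encodes the founding Cas protein p130Cas, averaged 110 ± 15.4 CPM in shGLO1#2, 65.2 ± 5.94 CPM in shGLO1#1 and 95.1 ± 11.5 CPM in shNT. It fell by 0.54 in shGLO1#1 (adjusted p = 9.27e-04) and was at 0.22 in shGLO1#2 (adjusted p = 0.117, and 0.0137 with the replicate block). PTK2, the gene of FAK itself, rose in both lines, by 0.52 in shGLO1#2 (adjusted p = 7.91e-06) and by 0.34 in shGLO1#1 (adjusted p = 2.30e-04), with 258 ± 12.4, 228 ± 8.84 and 180 ± 8.07 CPM in shGLO1#2, shGLO1#1 and shNT. Its relative PTK2B (PYK2) did not pass the test, at 0.20 and 0.22 (adjusted p = 0.406 and 0.312).

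Paxillin (PXN), the scaffold that recruits FAK, was at -0.15 in shGLO1#2 (adjusted p = 0.0314) and -0.17 in shGLO1#1 (adjusted p = 0.0162). Neither value was stable to single libraries. The first did not pass without replicate 1 or 2 of shNT or without replicate 2 or 3 of shGLO1#2 (adjusted p = 0.0766 to 0.133), and the second did not pass without replicate 1 of shGLO1#1 (0.0697). PXN shares exon bases with PXN-AS1, which had 258 counts in all.

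In the ILK complex 1 gene moved. PARVA (alpha-parvin, the actin-binding member) rose by 0.43 in shGLO1#1 (adjusted p = 2.37e-04) and was at 0.07 in shGLO1#2 (adjusted p = 0.484). ILK and LIMS1 (PINCH1) ranged from -0.14 to -0.01 and did not pass in either line. ILK shares 2374 exon bases with TAF10 on the opposite strand.

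Changes of the actin linkers were small. FLNA (filamin A), the most abundant of them, was at 398 ± 35.2 CPM per kb in shGLO1#2, 351 ± 14.7 in shGLO1#1 and 379 ± 41.0 in shNT. FLNA did not pass the test in either line (0.07 and -0.11, adjusted p = 0.521 and 0.278). In shGLO1#2, vinculin (VCL), which shares exon bases with AP3M1, fell by 0.23 (adjusted p = 0.00642), and zyxin (ZYX), which recruits actin regulators to strained fibers, fell by 0.31 (adjusted p = 0.00393). In shGLO1#1 they were at -0.08 and -0.18 (adjusted p = 0.255 and 0.0630). The crosslinker ACTN1 fell by 0.29 in shGLO1#1 (adjusted p = 9.96e-04) and was at 0.03 in shGLO1#2 (adjusted p = 0.727). ACTN4 was at -0.17 in shGLO1#1 (adjusted p = 0.0499), a value that did not pass without any 1 of 5 libraries, namely replicates 1 and 2 of shNT, replicates 1 and 2 of shGLO1#1 and replicate 3 of shGLO1#2 (0.0719 to 0.193), and at -0.01 in shGLO1#2 (adjusted p = 0.900).

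The caveolins, which coat small pits of the membrane next to adhesion sites, differed between the depleted lines. CAV2 had 81.5, 92.0 and 112 CPM in shGLO1#2, 171, 199 and 232 CPM in shGLO1#1, and 128, 104 and 129 CPM in shNT. The shGLO1#1 libraries lay above all others, and those of shGLO1#2 overlapped shNT. CAV2 rose by 0.74 ± 0.12 in shGLO1#1 (adjusted p = 2.64e-04). In shGLO1#2 it was at -0.34 ± 0.12 (adjusted p = 0.0444), which did not pass without any of 5 single libraries, namely replicates 1 and 3 of shNT, replicate 2 of shGLO1#1 and replicates 1 and 2 of shGLO1#2 (0.0587 to 0.170), nor with RLE factors (0.0507). CAV1, the main caveolin, was at -0.24 in shGLO1#2 (adjusted p = 0.0520, and 8.21e-04 with the replicate block) and at 0.12 in shGLO1#1 (adjusted p = 0.317).

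Between the depleted lines themselves, shGLO1#2 had 1 member called higher than in shGLO1#1 (TNS1, against 3.33% of all genes tested) and 1 called lower (CAV2, against 3.75%). The first count rests on TNS1, which entered the test only through shGLO1#2, and without it edgeR called 0 members higher. As a description, TNS1 was at 5.56 on the log2 scale. CAV2 was lower by -1.08 ± 0.12 (adjusted p = 1.13e-05), and its change was below the limit without replicate 3 of shGLO1#1 (-0.96) or replicate 1 of shGLO1#2 (-0.98).

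By the adjusted p alone, 7 members were higher in shGLO1#2 than in shGLO1#1 (18.4% of those tested) and 11 were lower (28.9%). Of all genes tested, 22.8% were higher and 23.7% lower. The 7 include TNS1, which entered the test only through shGLO1#2. The 11 lower members held 7 of the 15 integrins tested, namely ITGA2 (-0.89, adjusted p = 4.99e-07), ITGA10 (-0.83, adjusted p = 0.00664), ITGA6 (-0.61, adjusted p = 3.19e-06), ITGAV (-0.39), ITGB1 (-0.36), ITGB5 (-0.35) and ITGAE (-0.25), with PARVA, TNS3, CAV1 and CAV2. ITGA10 went past the limit of 1 without replicate 1 of shGLO1#2 (-1.19), and ITGAE did not pass without replicate 1 of shGLO1#1 (adjusted p = 0.0663). The 7 higher members were TNS1, BCAR1 (0.76, adjusted p = 5.85e-05), FERMT2 (0.52, adjusted p = 6.75e-06), ITGB8 (0.49, adjusted p = 0.0280), FERMT1 (0.35), ACTN1 (0.32) and PTK2 (0.18). The difference in ITGB8 did not pass with DESeq2 or when any 1 of 5 libraries was left out, namely replicates 2 and 3 of shGLO1#1 and all replicates of shGLO1#2 (adjusted p = 0.0509 to 0.111). That in FERMT1 did not pass without replicate 3 of shGLO1#1 or replicate 2 of shGLO1#2 (0.0558 and 0.0554), that in PTK2 without replicate 1 or 3 of shGLO1#1 or replicate 3 of shGLO1#2 (0.0526 to 0.0668), and that in TNS3 without replicate 3 of shGLO1#1 (0.0597). For ITGA5 the lines differed by 0.10 ± 0.09 (adjusted p = 0.343), for ITGB2 by 0.52 ± 0.21 (adjusted p = 0.0558) and for NEDD9 by -0.26 ± 0.19 (adjusted p = 0.282). The ITGB2 difference depended on the processing. It passed with DESeq2 (adjusted p = 0.0317), without the low-count filter (0.0161), with the replicate block (0.00699) and in the fit of the 2 groups (0.0436).

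A list of 83 other focal adhesion proteins (kinases, small GTPases, LIM proteins and their regulators) had 74 tested genes. In shGLO1#2 against shNT 6 were called higher (8.11%, where 5.09% of all genes tested were) and 1 lower (1.35%, where 2.59% were), and in shGLO1#1 against shNT 3 were called higher (4.05% of the list, where 5.98% of all genes tested were) and 2 lower (2.70%, where 2.75% were). The medians were -0.0047 and -0.06. ARHGEF6 (alpha-PIX), an exchange factor for RAC1 and CDC42 that binds beta-parvin, rose by 2.76 in shGLO1#2 (adjusted p = 2.13e-06) and by 4.13 in shGLO1#1 (adjusted p = 3.02e-08), with 3.16 to 4.45 CPM, 8.78 to 10.8 CPM and 0.403 to 0.720 CPM in shGLO1#2, shGLO1#1 and shNT. Every library of depleted cells lay above every shNT library. ELMO1, which acts with DOCK1 on RAC1 downstream of Cas proteins, had 36 counts in shGLO1#2, 43 in shGLO1#1 and 3 in shNT, ratios of 11.5 (exact 95% interval 3.63 to 58.3) and 13.3 (4.25 to 66.9). It passed the count filter only through shGLO1#2 in that comparison, and 5 genes were called higher there without it.

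EVL, an actin-filament elongation factor of the Ena/VASP family, and FBLIM1 (migfilin), which joins filamin to kindlin, rose in shGLO1#2 (3.06, adjusted p = 1.12e-06, and 2.38, adjusted p = 3.44e-06) and were at 0.50 and 0.23 in shGLO1#1 (adjusted p = 0.240 and 0.521). Both were also higher in shGLO1#2 than in shGLO1#1 in a direct test (2.57 and 2.15, adjusted p = 1.95e-06 and 4.54e-06). LPXN (leupaxin), a paxillin relative, rose by 1.52 in shGLO1#2 (adjusted p = 6.53e-08) and by 0.59 in shGLO1#1 (adjusted p = 1.82e-04). WTIP, a LIM protein of the Ajuba family, fell by 1.52 and by 0.84 (adjusted p = 6.14e-05 and 0.00282). SDPR (cavin-2), a coat protein of caveolae that was singled out after its values had been seen because of the caveolins, averaged 76.8 ± 10.6 CPM in shGLO1#2, 39.1 ± 2.73 CPM in shGLO1#1 and 78.9 ± 6.96 CPM in shNT. It fell by 1.01 in shGLO1#1 (adjusted p = 2.94e-06), where CAV2 rose. Its change there stood at -0.98 to -0.97 without replicate 1 or 3 of shNT or replicate 1 of shGLO1#1, below the limit for a call. The cavins of the list did not move together. PTRF (cavin-1) averaged 655 ± 19.0 CPM in shGLO1#2, 543 ± 36.3 CPM in shGLO1#1 and 734 ± 28.8 CPM in shNT. PRKCDBP (cavin-3) was higher in both depleted lines, at 54.9 ± 4.26, 64.3 ± 2.88 and 39.2 ± 4.19 CPM in the same order.

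Of 52 integrin ligands, 36 were tested. In shGLO1#2 against shNT 7 were called higher (19.4% of the list, where 5.09% of all genes tested were) and 2 lower (5.56%, where 2.59% were), or 6 higher without VWF. In shGLO1#1 against shNT 5 were called higher (13.9%, where 5.98% of all genes were) and 2 lower (5.56%, where 2.75% were). The medians were -0.06 and 0.21. This list and that of the other focal adhesion proteins were chosen with earlier results of these data known, so their shares are descriptions. The E-cadherin gene CDH1, whose product is bound by the ITGAE receptor, averaged 0.516 ± 0.0283 CPM in shGLO1#2, 1.81 ± 0.329 CPM in shGLO1#1 and 26.1 ± 9.03 CPM in shNT, a fall by 5.64 (adjusted p = 4.25e-08) and by 3.85 (adjusted p = 1.29e-07). TNC, a matrix glycoprotein whose receptors include ITGA8 and ITGA9 integrins, rose by 2.41 and by 2.40 (adjusted p = 4.83e-05 and 4.17e-05), with 37.8 to 62.0 CPM, 41.7 to 63.8 CPM and 3.56 to 15.5 CPM in shGLO1#2, shGLO1#1 and shNT. Both of these alpha chains had too few counts to be tested.

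TGFBI, an RGD-bearing matrix protein, rose by 1.10 in shGLO1#2 and by 1.42 in shGLO1#1 (adjusted p = 3.80e-07 and 3.46e-08), and LAMA4, a laminin alpha chain, rose by 1.48 and by 1.34 (adjusted p = 1.12e-07 and 1.77e-07). L1CAM, a cell adhesion molecule with an RGD motif, rose by 2.42 in shGLO1#2 (adjusted p = 4.44e-07) and was at 0.28 in shGLO1#1 (adjusted p = 0.291), and the direct test of shGLO1#2 against shGLO1#1 gave 2.14 (adjusted p = 6.05e-07). VWF, which ITGAV and ITGA2B integrins bind, had 0.614 to 1.12 CPM in shGLO1#2, 0.163 to 0.309 CPM in shGLO1#1 and 0.130 to 0.166 CPM in shNT. It passed the count filter only through shGLO1#2, so its values are a description. VWF is also a marker of endothelium, whose 5 markers summed to 7.76 to 9.81 CPM in shGLO1#2, 6.27 to 8.02 CPM in shGLO1#1 and 4.43 to 5.80 CPM in shNT, with CDH5, the endothelial cadherin, at or below 0.122 CPM in every library. PECAM1 averaged 3.21 ± 1.49 CPM in shGLO1#2, 2.71 ± 0.329 CPM in shGLO1#1 and 0.856 ± 0.255 CPM in shNT and rose by 1.90 and by 1.66 (adjusted p = 6.01e-04 and 0.00156), and KDR lay between 3.09 and 5.15 CPM. Their part in the result was not tested.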

How the data were processed

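RNA-seq libraries of 9 MDA-MB-231 samples (3 per line) were made with a TruSeq kit that does not mark the strand. Per the labels and the submitters' processing notes, the authors used bcl2fastq 2.17, TopHat2 2.1.1, HTSeq and hg19. For HTSeq, the version, annotation and strand setting were not given in the sources used here. As deposited, the files hold raw counts per gene symbol, with 12.8 to 15.2% of counted alignments on no gene, 1.50 to 1.95% ambiguous and 5.76 to 6.15% not unique. These rows were left out.

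Tests were run with edgeR 4.0.16 in R 4.3.3 (TMM factors 0.972 to 1.04). filterByExpr (minimum count 10, minimum total 15) left 13704 of 26364 genes. One quasi-likelihood model of all 9 libraries gave the 3 comparisons, with Benjamini-Hochberg adjustment over all genes tested. The SE was taken as the size of the log2 fold change over the square root of its F statistic. The test was checked on simulated counts. No libraries were identical. Levels per kilobase used the exon union of GENCODE v29 (GRCh38), since no annotation of the counting was at hand. Where a group had no count, the fold is a bound against 3 counts over the group, and with 1 to 3 counts a ratio with its exact 95% interval is given. Floors and intervals cover counting error only. Promoter windows were read from RefSeq tables (GRCh38.p14), which held 36 of the 50 genes.

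The replicate number was tested as a pairing by the correlation of deviations from line means. For shGLO1#2 and shNT the same-number correlations were 0.21, 0.185 and 0.309, all over 0.1, so these numbers were taken to pair the libraries. This was read from the data and not from the labels, and the main model left the pairing out. Different-number libraries of shGLO1#1 and shNT reached 0.121 and 0.134, so a value over 0.1 does not by itself mark a pairing. For shGLO1#1 and shNT the same-number correlations were -0.0339, 0.0558 and 0.25, and for shGLO1#2 and shGLO1#1 they were 0.197, 0.0691 and 0.341. These did not all pass, which leaves a pairing there not established. Alternatives were RLE factors, DESeq2 1.42.0, 2 other filters, the replicate block, fits of 2 groups and leaving out each library. Library values are given for members called in any comparison and for those past the adjusted p with an absolute log2 fold change over 0.5 in both depleted lines, the others by role, and up to 6 called genes per list by size of change. The members and lists were chosen with earlier results of these data known. Of the planned leukocyte markers, 1 is not reported here.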

Additional observations from a re-analysis of the deposited data

Results flagged for a closer look

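In all, 2 members differed between the depleted lines past the limits of a call, by the direct test of shGLO1#2 against shGLO1#1 in the model of all libraries. TNS1, which was in the test only because of its counts in shGLO1#2, differed by 5.56 on the log2 scale (383 counts over the 3 shGLO1#2 libraries and 8 over those of shGLO1#1), and it was higher in 3 of 3 shGLO1#2 libraries than in any of shGLO1#1. CAV2 differed by -1.08, with means of 95.0 CPM in shGLO1#2 and 201 CPM in shGLO1#1, and all 3 shGLO1#2 libraries lay below those of shGLO1#1.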

How the results depend on the processing

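Against shNT, the members called higher or lower in shGLO1#1 stayed at 4 and 2 when any library was left out. Those in shGLO1#2 stayed at 2 to 3 and 2, with ITGA7 as the member added. The higher counts of both lines include TNS1, which entered the test only through shGLO1#2. With DESeq2, and without the low-count filter, ITGA8 joined the members called higher in shGLO1#1, at an adjusted p of 0.0463 and 0.0112. By the adjusted p alone, the lower members in shGLO1#1 ranged from 5 to 9 over the left-out libraries (8 with all). Members called lower in shGLO1#2 against shGLO1#1 numbered 2 under DESeq2 and 2 without the low-count filter, each time with ITGA8 added, and 0 to 1 over the left-out libraries. The ITGA5 difference between these lines ranged from -0.011 to 0.18 and reversed without replicate 1 of shGLO1#2, with an adjusted p of 0.907. Of the other focal adhesion proteins, 0 to 2 were called lower in shGLO1#1. Of the integrin ligands, 1 to 3 were called lower in shGLO1#1 and 2 to 4 in shGLO1#2. Causes were not tested. With the replicate block, no count of called members changed (4 higher and 2 lower for shGLO1#1 against shNT, for example). In the comparisons where a pairing was not established, the block changed the counts by the adjusted p alone. It gave 17 higher and 10 lower members for shGLO1#1 against shNT. For shGLO1#2 against shGLO1#1 it gave 10 higher and 16 lower. The higher counts of both comparisons include TNS1. The list results were given these alternatives after the data had been seen. Depth limits the 12 untested members, and 1 clone per condition limits every comparison.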
